A study of Rattus norvegicus with 18 samples.

Results

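Heat shock proteins and their co-chaperones were followed across the 4 groups of rat hippocampus libraries in this series. They were taken by gene symbol: every row whose symbol starts with Hsp or Dnaj, and Bag1 to Bag6, Hsf1 and Hsf2, without Hspg2, which encodes the matrix proteoglycan perlecan. Of 81 such symbols, 75 had at least 10 counts in at least 3 libraries, out of 17455 symbols in the deposited table. All 75 were also abundant enough to be among the 13338 genes tested. They comprise 40 Dnaj genes, 13 Hspa genes, 6 small heat shock genes, 6 Bag genes, 3 Hsp90 genes, 2 heat shock factors, a class of 3 made of the chaperonins Hspd1 and Hspe1 with the Hsp110 gene Hsph1, and a class of 2 made of Hspbp1 and Hspbap1. The 6 symbols left out for low counts were Dnajb7, Dnajb8, Dnajc5b, Dnajc5g, Hspb3 and Hspb9, none of which had more than 9 counts in any library.

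Left hippocampi of male adult Sprague-Dawley rats of 170 to 280 g were taken in 2 models of temporal lobe epilepsy, 24 hours after the last seizure in rats that had seizures, and their polyadenylated RNA was sequenced. In the kainic acid (KA) model, electrodes were implanted and status epilepticus was brought on by kainic acid, which activates glutamate receptors, given systemically in rising amounts. In the kindling (KI) model, rats carried hippocampal electrodes and were stimulated electrically again and again until fully kindled. The groups were KA 3 Class V (n = 3), KA sham (n = 7), KI 3 Class V (n = 4) and KI sham (n = 4); what "3 Class V" stands for in either model, and what a sham rat received, is not given in the sources used here. All groups share strain, sex and tissue, and each model has its own shams. The question taken from the study's title is what the models share.

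Libraries held 37172455 to 49943021 counts (KA 3 Class V), 32150130 to 42619628 (KA sham), 36117956 to 41195373 (KI 3 Class V) and 30925368 to 38850420 (KI sham). The 75 genes together took between 0.984% and 1.58% of a library's counts, the lowest share in KA sham 2 and the highest in KI sham 1. Several libraries stood apart. A chi-square of raw counts per degree of freedom was 448 to 545 between KI 3 Class V 1 and the others of its group, against 20.4 to 42.7 among those others, and 504 to 603 between KI sham 2 and the other KI shams. The ribosomal protein score, a mean over 88 genes of log2 CPM (counts scaled to library size) centred on each gene's mean, was 0.97 in KA sham 2 and 0.69 in KI sham 1, and ran from -0.49 to 0.46 in the other 16 libraries. Choroid plexus markers stood out in a pair of shams, summing to 988 CPM (KI sham 4) and 631 CPM (KA sham 3), and reached at most 80.0 CPM elsewhere. Blood cell genes summed to 4228 CPM in KA sham 2 and 2074 CPM in KI sham 1, and to at most 1263 CPM elsewhere. Summed neuron markers, among them Snap25 and Slc17a7, ran from 4891 to 7661 CPM in 17 libraries and reached 3589 CPM in KI sham 1. Every library thus held neuronal RNA. The list marks neurons and is no check that the tissue was hippocampus.

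Heat shock proteins are chaperones, which bind unfolded or misfolded proteins. Small heat shock proteins hold such clients without using ATP, Hsp70 proteins (the Hspa genes) fold them in cycles of ATP use, J-domain proteins (the Dnaj genes) bring clients to Hsp70, and nucleotide exchange factors such as the Bag and Hsp110 proteins release them. Heat shock factor 1, the product of Hsf1, turns on the inducible members under proteotoxic stress by binding repeats of nGAAn near their start sites, and several of these genes are known to be induced in the brain after seizures and injury.

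Members divide by whether such repeats lie just upstream of the gene. In the 250 bases before the start of each gene, taken from RefSeq on GRCr8, a repeat of 2 units, GAANNTTC or TTCNNGAA, was searched. Both forms read the same on either strand. Promoters were found for 59 of the 75 members, and 15 of these (25.4%) held the repeat, against 4534 of 33469 rat promoters of the same length (13.5%). Here and below, a member counted if any of its promoters matched, while rat promoters were counted singly. The shares are therefore in unlike units. A repeat of 3 units, GAANNTTC followed by NNGAA or, on the other strand, TTCNNGAA followed by NNTTC, each of which contains both 2-unit forms, occurred in Hspa8, Hspd1, Hspe1 and Hsph1, 4 of 59 members (6.78%), against 222 of 33469 promoters (0.663%). Hspd1 and Hspe1 lie head to head with overlapping windows, so their matches are the same bases. A match describes the letters in the window and is neither a binding site nor a cause. Below are the windows of Hspb1 (chr12:26432302-26432551, minus strand) and Bag3 (chr1:192533210-192533459, plus strand), the 2 members that rose in the KA model, beside those of Hsph1 (chr12:10427118-10427367, plus strand) and Hspa8 (chr8:50080264-50080513, plus strand), which carry the longer repeat and did not pass the test in either model. They were picked after their expression was known. Each is written 5′ to 3′ on the gene's strand with the repeats in capitals.
Hspb1: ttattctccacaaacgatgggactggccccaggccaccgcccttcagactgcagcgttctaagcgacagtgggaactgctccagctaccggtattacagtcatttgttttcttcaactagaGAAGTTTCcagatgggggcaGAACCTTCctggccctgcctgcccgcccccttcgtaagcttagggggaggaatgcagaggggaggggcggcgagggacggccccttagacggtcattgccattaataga
Bag3: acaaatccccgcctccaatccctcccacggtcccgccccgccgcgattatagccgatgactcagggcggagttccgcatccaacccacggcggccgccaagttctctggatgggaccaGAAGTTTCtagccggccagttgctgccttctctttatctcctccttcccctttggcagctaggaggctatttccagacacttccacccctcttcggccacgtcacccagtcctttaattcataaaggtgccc
Hsph1: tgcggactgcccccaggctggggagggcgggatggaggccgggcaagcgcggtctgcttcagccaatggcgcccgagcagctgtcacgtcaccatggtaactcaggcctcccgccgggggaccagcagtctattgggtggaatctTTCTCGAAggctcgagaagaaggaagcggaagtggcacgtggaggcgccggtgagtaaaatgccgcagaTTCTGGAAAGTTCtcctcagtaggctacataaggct
Hspa8: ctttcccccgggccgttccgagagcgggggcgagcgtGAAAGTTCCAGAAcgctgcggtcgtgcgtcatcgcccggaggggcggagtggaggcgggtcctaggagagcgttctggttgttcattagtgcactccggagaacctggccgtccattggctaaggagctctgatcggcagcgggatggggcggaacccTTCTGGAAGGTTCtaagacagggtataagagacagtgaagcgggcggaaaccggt
Hspb1 had 2 separate 2-unit repeats, starting 129 and 109 bases before the start, and Bag3 had 1, starting 132 bases before it.

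In the KA model, 2 of the 75 genes rose in KA 3 Class V hippocampi, Hspb1 and Bag3, and 0 fell. Over all genes tested, 0.172% were called, each of them higher in KA 3 Class V. A gene was called where edgeR's quasi-likelihood test gave a Benjamini-Hochberg adjusted p under 0.05 over all 13338 genes. At an unadjusted p under 0.05 the count was 11 of 75 members, or 14.7%, against 9.93% of all genes. The 2 genes that rose encode partners: Hspb1 is the small heat shock protein known as HSP27, and Bag3 is the co-chaperone that couples Hsp70 to small heat shock proteins and directs clients to autophagy.

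Hspb1 had 33.1, 47.1 and 112 CPM in KA 3 Class V, against a lowest value of 10.4, a median of 14.5 and a highest of 22.5 CPM in the 7 KA shams. All 3 KA 3 Class V libraries lay above every sham, and replicate 3 lay far above the other two. The log2 fold change was 2.11 ± 0.34 (SE), a 4.33-fold difference, with an edgeR adjusted p of 0.00831. Without KA 3 Class V replicate 3 the log2 fold change was 1.43 and the edgeR adjusted p 0.252.

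Bag3 had 30.7, 35.4 and 131 CPM in KA 3 Class V, against a lowest value of 16.7, a median of 20.1 and a highest of 26.0 CPM in KA sham. The groups did not overlap, and replicate 3 of KA 3 Class V was again the highest of the libraries. The log2 fold change was 1.65 ± 0.29 (SE), or 3.15-fold, with an edgeR adjusted p of 0.0212. Without KA 3 Class V replicate 3 the log2 fold change was 0.65 with an edgeR adjusted p of 0.248, and leaving out KA sham replicate 3, 5 or 7 kept it between 1.62 and 1.65 with adjusted p of 0.0572, 0.055 and 0.0618. Fitting the KA libraries alone gave 1.65 with an adjusted p of 0.111, while Hspb1 was still called there with an adjusted p of 0.0303.

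Astrocytes are a known source of Hspb1 after brain injury. Summed astrocyte markers ran from 13066 to 15108 CPM in KA 3 Class V and from 6128 to 12253 CPM in KA sham, without overlap, and 6 of the 9 markers had a positive log2 fold change. Of these, 1 was called, Gfap, with a log2 fold change of 1.24 ± 0.24 (SE; edgeR adjusted p 0.041). DESeq2 called 4 of the 9 astrocyte markers and limma-voom 4. Summed microglia markers ran from 948 to 1249 CPM in KA 3 Class V and from 475 to 1114 CPM in KA sham, with 8 of 8 positive. Summed neuron markers (4891 to 5246 CPM in KA 3 Class V, 5272 to 6946 CPM in KA sham, 3 of 8 positive) and ependymal markers (50.3 to 51.2 CPM in KA 3 Class V, 34.4 to 46.4 CPM in KA sham, 5 of 6 positive) also did not overlap. Of 7 oligodendrocyte markers, 0 were positive. In these 4 lists edgeR called 0 genes, with 5 microglia, 0 neuron, 1 ependymal and 5 oligodendrocyte markers at an unadjusted p under 0.05; DESeq2 called 1, 0, 1 and 1 of them and limma-voom 3, 0, 1 and 2. Blood cell genes summed to 243 to 578 CPM in KA 3 Class V and 254 to 4228 CPM in KA sham. Of the 4 tested, 0 were positive and 4 had an unadjusted p under 0.05. EdgeR called 0 of these 4, DESeq2 1 and limma-voom 4. The part of these shifts in the rise of Hspb1 and Bag3 was not tested. In bulk tissue, a change in the number of cells of a type and a change in RNA per cell cannot be told apart.

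The other small heat shock genes did not pass the test in the KA model. Hspb8, which encodes the small heat shock protein that works in a complex with Bag3, had 43.0, 34.6 and 48.9 CPM in KA 3 Class V, against a lowest value of 18.1, a median of 27.1 and a highest of 39.8 CPM in KA sham. The groups overlapped through KA sham replicate 2. Its log2 fold change was 0.58 ± 0.18 (SE), with an edgeR adjusted p of 0.192, and it was called by limma-voom and when the ribosomal protein score was a covariate. Values for the rest of the class were 0.17 for Hspb2, -0.16 for Hspb6 (HSP20, known from muscle), -0.33 for Hspb7, a very low gene with 1 to 17 counts per library, and -0.50 for Hspb11, which RefSeq lists as the intraflagellar transport gene Ift25. The class score, a mean of centred log2 CPM over the 6 genes, was 0.300 ± 0.232 in KA 3 Class V and -0.0252 ± 0.241 in KA sham (SD, n = 3 and 7), and the class median log2 fold change of 0.0045 was close to that of all genes, -0.011.

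**Figure D1:**
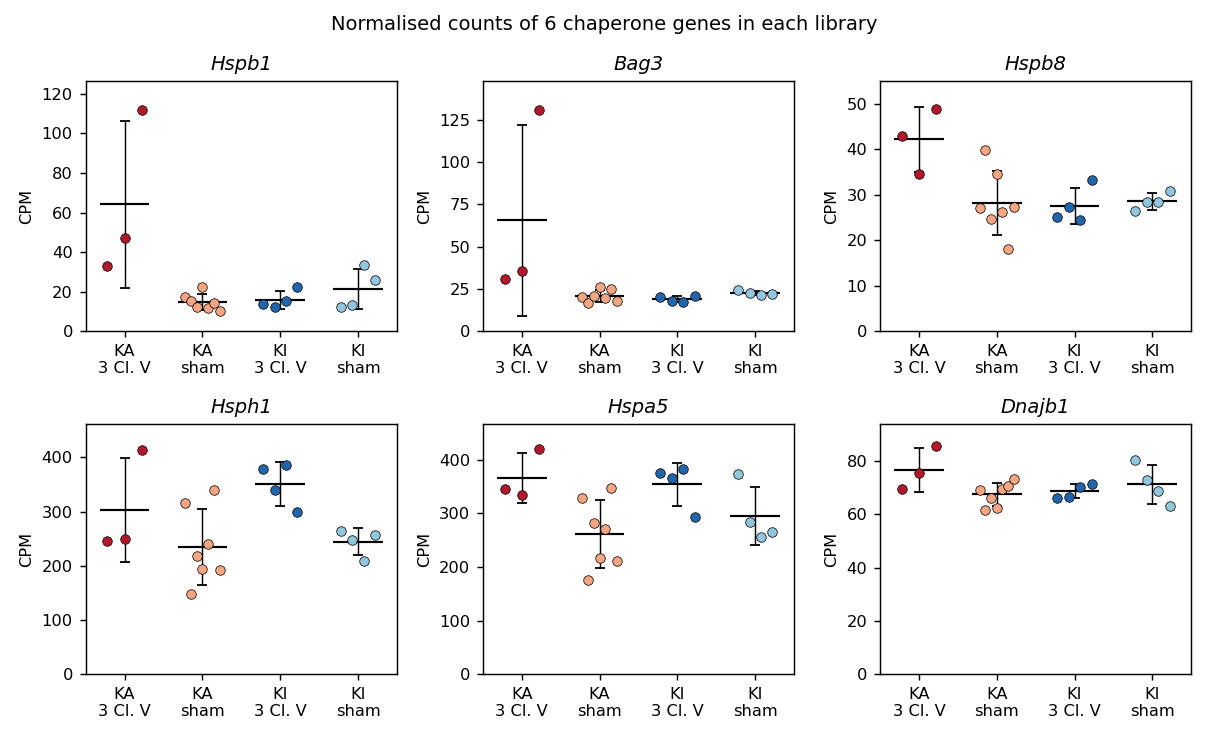
CPM on linear axes of 6 inducible members, Hspb1, Bag3, Hspb8, Hsph1, Hspa5 and Dnajb1, with 1 point per library and each group's mean (line) and SD (error bar). Hspb1 and Bag3 are the 2 panels in which the 3 KA 3 Class V libraries lie above every other KA library, with replicate 3 at 112 and 131 CPM.

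Other cytosolic chaperones often used as heat shock markers did not pass the test in the KA model. Hsph1, an Hsp110 exchange factor whose promoter carries the longer repeat, had 246, 250 and 413 CPM in KA 3 Class V, against a lowest value of 147, a median of 218 and a highest of 340 CPM in KA sham. Only replicate 3, the library with the highest Hspb1 and Bag3, lay above the shams, and the log2 fold change was 0.36 ± 0.22 (SE; edgeR adjusted p 0.616). Dnajb1, the main inducible partner of Hsp70 among J-domain proteins, had 69.3, 75.4 and 85.6 CPM in KA 3 Class V, against a lowest value of 61.7, a median of 69.2 and a highest of 73.1 CPM in KA sham. Its log2 fold change was 0.19 ± 0.09 (SE; edgeR adjusted p 0.533). Hsp90aa1, the inducible cytosolic Hsp90, lay at 0.08 ± 0.19 and Hsp90ab1, the constitutive one, at 0.02 ± 0.16 (SE; edgeR adjusted p 0.933 and 0.986). For the transcription factors themselves, Hsf1 lay at 0.05 ± 0.09 and Hsf2 at 0.01 ± 0.10 (SE; edgeR adjusted p 0.903 and 0.982).

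Hspa1a and Hspa1b, the stress-inducible Hsp70 genes, are near-identical copies, and the handling of reads that fit both is not given in the sources used here, so their values are uncertain. Hspa1a had 22 to 116 counts per library and Hspa1b 4 to 23. Hspa1a ran from 1.11 to 1.74 CPM in KA 3 Class V and from 0.673 to 1.82 CPM in KA sham. In the KI model it ran from 0.992 to 1.53 CPM in KI 3 Class V and from 1.02 to 4.01 CPM in KI sham, the highest value of all libraries being KI sham 1. The log2 fold changes of Hspa1a were 0.16 ± 0.35 in KA and -0.62 ± 0.36 in KI (SE), with edgeR adjusted p of 0.921 and 0.213.

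Hspa5 and Hsp90b1, chaperones of the endoplasmic reticulum, had higher means in KA 3 Class V without passing the test. Hspa5, the reticulum's Hsp70 known as BiP, had 345, 335 and 420 CPM in KA 3 Class V, against a lowest value of 177, a median of 270 and a highest of 347 CPM in KA sham, a log2 fold change of 0.48 ± 0.18 (SE; edgeR adjusted p 0.327). Hsp90b1, the reticulum's Hsp90 known as GRP94, ran from 398 to 429 CPM in KA 3 Class V and from 257 to 377 CPM in KA sham. Its groups did not overlap, yet the log2 fold change of 0.35 ± 0.14 (SE) had an edgeR adjusted p of 0.367. Among 18 further genes of reticulum chaperones and the unfolded protein response, 0 were called by edgeR, 1 by DESeq2 and 1 by limma-voom, 4 had an unadjusted p under 0.05, and 16 had a positive log2 fold change, with a median of 0.17 beside -0.011 for all genes. The smallest p among them was that of the disulfide isomerase Pdia4, at 0.37 ± 0.09 (SE; edgeR adjusted p 0.101).

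Hspa2, an Hsp70 best known from the testis, had 32.1, 44.3 and 58.1 CPM in KA 3 Class V, against a lowest value of 22, a median of 29.4 and a highest of 37.6 CPM in KA sham. It overlapped the shams through 1 library and had a log2 fold change of 0.60 ± 0.18 (SE; edgeR adjusted p 0.192). Among the J-domain genes, the smallest p values belonged to Dnajc27, at -0.29 ± 0.10, and the mitochondrial Dnajc30, at -0.27 ± 0.10 (SE; edgeR adjusted p 0.265 and 0.270), both lower in every KA 3 Class V library than in every sham. In all, the groups did not overlap for 10 of 75 members, 6 higher and 4 lower in KA 3 Class V, against 5.65% of all genes (2.95% higher and 2.7% lower). The 6 were Hspb1, Bag3, Hsp90b1, Hspa13, Dnajc3 and Dnajc25, and the 4 were Dnaja4, Dnajb13, Dnajc27 and Dnajc30. The remaining members nearest to a call in their classes were Hspe1 (-0.56, edgeR adjusted p 0.645), Bag2 (-0.14, 0.814), Hspbap1 (0.13, 0.774) and Hspbp1 (-0.0072, 0.995).

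**Figure D2:**
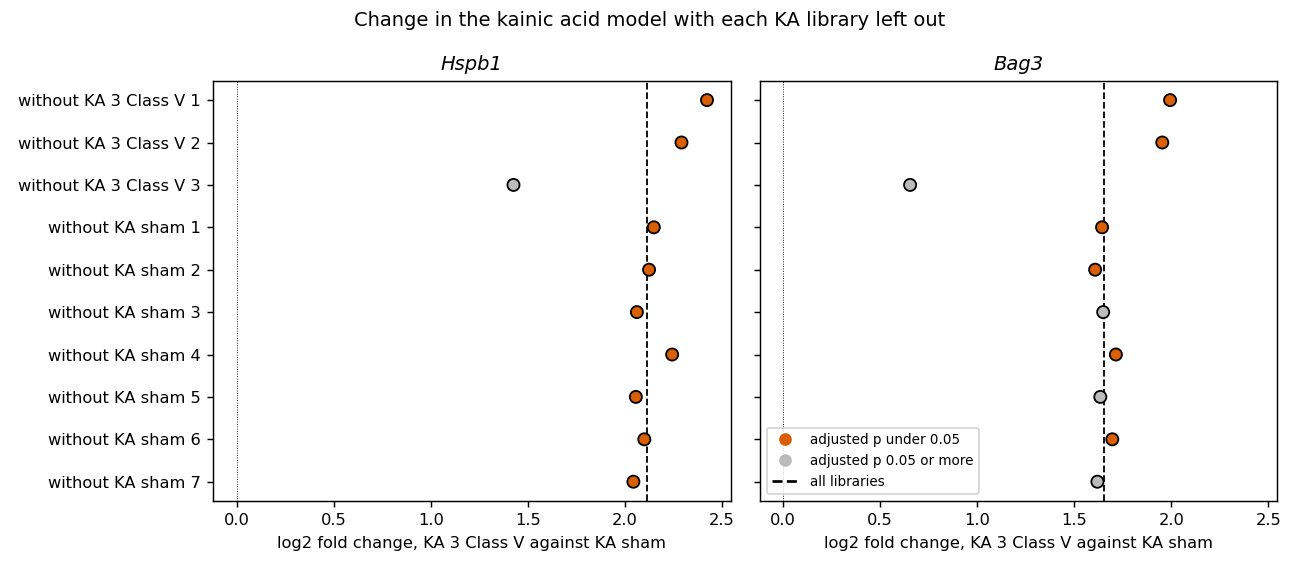
Log2 fold change of Hspb1 and Bag3 in KA 3 Class V against KA sham with each KA library left out in turn. Each point is 1 edgeR fit, orange where the adjusted p is under 0.05 and grey where it is not, the dashed line is the value from all libraries, and the lowest points, 1.43 for Hspb1 and 0.65 for Bag3, are those without KA 3 Class V replicate 3.

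In the KI model, 6 of the 75 members rose and 3 fell in KI 3 Class V hippocampi. The 9 called are 12% of the members, beside 9.99% of all genes tested (4.74% higher and 5.25% lower), so their share was near that of the table as a whole. Those that rose were the J-domain genes Dnajc6, Dnajb4 and Dnajc18 and the Hsp70 relatives Hspa4l, Hspa12a and Hspa13, by 1.30-fold to 1.84-fold. Those that fell were Dnajc22, Dnajc17 and the small heat shock gene Hspb2. At an unadjusted p under 0.05 there were 28 of 75 members, or 37.3%, against 35.4% of all genes.

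Dnajc6 encodes auxilin, the neuronal J-domain protein that brings Hsc70 to clathrin-coated vesicles to strip their coat after endocytosis at synapses. It had 580, 470, 559 and 486 CPM in KI 3 Class V, against 205, 314, 317 and 305 CPM in KI sham. Every KI 3 Class V library lay well above every sham, and KI sham 1 lay below the other shams. The log2 fold change was 0.88 ± 0.16 (SE), or 1.84-fold, with an edgeR adjusted p of 0.0210. In the KA model Dnajc6 had 305, 380 and 310 CPM in KA 3 Class V and 286 to 429 CPM in KA sham, and its log2 fold change was -0.06 ± 0.16 (SE; edgeR adjusted p 0.936). Without KI sham replicate 1 the KI log2 fold change was 0.75 and the gene was still called.

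Hspa4l, an Hsp110-type exchange factor, had 116, 114, 117 and 103 CPM in KI 3 Class V, against 69.1, 79.3, 75.8 and 88.1 CPM in KI sham. The groups were apart, with a log2 fold change of 0.53 ± 0.14 (SE; edgeR adjusted p 0.0331). Hspa12a, a distant relative of Hsp70 that is abundant in brain, had 332, 292, 319 and 241 CPM in KI 3 Class V, against 141, 159, 149 and 213 CPM in KI sham. These groups were apart as well, the closest pair being KI 3 Class V replicate 4 and KI sham replicate 4. Its log2 fold change was 0.84 ± 0.25 (SE; edgeR adjusted p 0.0458). Hspa13, a microsomal member of the Hsp70 family, had 36.8, 33.3, 37.9 and 33.2 CPM in KI 3 Class V, against 25.5, 27.6, 29.0 and 26.6 CPM in KI sham, a small difference with little spread. Its log2 fold change was 0.37 ± 0.09 (SE; edgeR adjusted p 0.0277), and in the KA model it was 0.19 ± 0.08 (SE; edgeR adjusted p 0.448).

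Dnajb4, a cytosolic partner of Hsp70, had 43.3, 37.9, 42.7 and 35.2 CPM in KI 3 Class V, against 15.9, 27.9, 29.5 and 27.9 CPM in KI sham. Dnajc18, a J-domain protein of the reticulum membrane, had 32, 28.8, 29.9 and 27.7 CPM in KI 3 Class V, against 10.2, 21.3, 23.4 and 23.4 CPM in KI sham. Both genes separated the groups, and for both KI sham 1 stood well below the other shams. The log2 fold changes were 0.65 ± 0.16 for Dnajb4 and 0.59 ± 0.18 for Dnajc18 (SE; edgeR adjusted p 0.0318 and 0.0486). Without KI sham replicate 1 they were 0.48 and 0.38, and both were still called.

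Of the 3 genes that fell, Dnajc22, whose fly counterpart wurst acts in endocytosis, was the least abundant. It had 0.346, 0.501, 0.422 and 0.260 CPM in KI 3 Class V, against 0.968, 1.37, 1.6 and 1.85 CPM in KI sham, resting on 10 to 79 counts per library over the whole series. The groups were apart, with a log2 fold change of -1.92 ± 0.44 (SE; edgeR adjusted p 0.0275). Dnajc17, a nuclear J-domain protein, had 7.72, 8.06, 8.14 and 8.65 CPM in KI 3 Class V, against 17.4, 10.8, 12.0 and 9.11 CPM in KI sham. The gap between the groups was narrow and KI sham 1 was the highest. The log2 fold change was -0.60 ± 0.18 (SE; edgeR adjusted p 0.0454), and without KI sham replicate 1 it was -0.38 and no longer called. Hspb2, a small heat shock gene known from muscle, had 1.32, 1.63, 1.83 and 1.49 CPM in KI 3 Class V, against 3.94, 2.49, 2.80 and 2.41 CPM in KI sham. Its log2 fold change was -0.89 ± 0.23 (SE; edgeR adjusted p 0.0348). Hspb2 overlaps Cryab, another small heat shock gene, in the RefSeq annotation, and the strand setting of the counting is not given in the sources used here, so reads of the pair may be mixed. Cryab lay at -0.41 in KI (edgeR adjusted p 0.210) and 0.45 in KA (edgeR adjusted p 0.534).

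**Figure D3:**
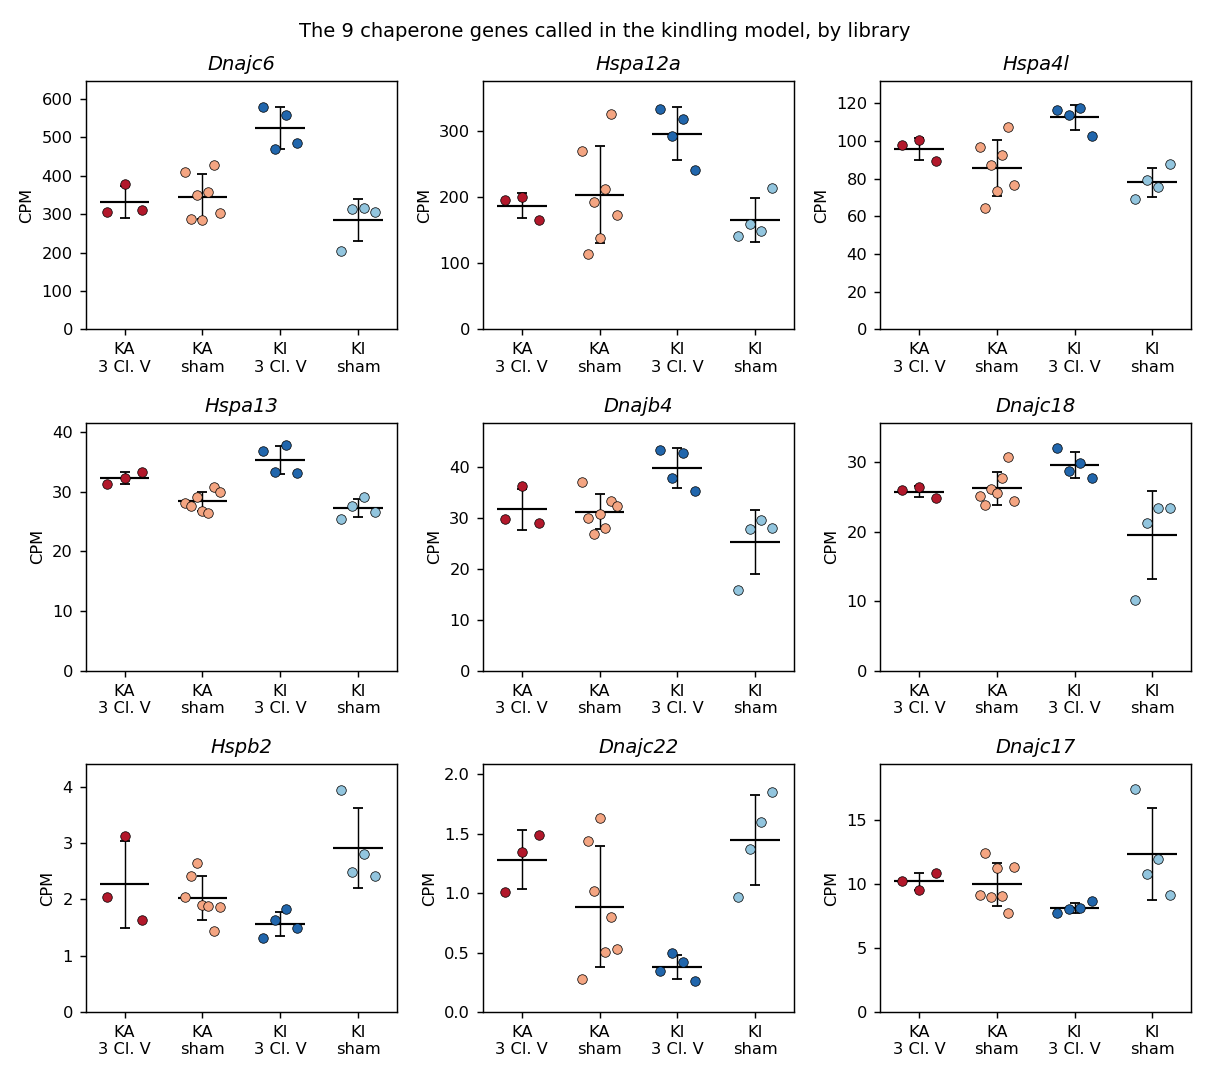
CPM per library of the 9 members called in KI 3 Class V against KI sham, with 1 point per library and each group's mean (line) and SD (error bar), on linear axes. The 4 KI 3 Class V libraries lie on 1 side of the 4 KI shams in all 9 panels, and KI sham 1 is the lowest KI sham for each of the 6 genes that rose.

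The 9 calls leaned on single libraries. Without KI 3 Class V replicate 1, 2 or 3, edgeR called 0 of the 75 members, with 18, 20 and 21 at an unadjusted p under 0.05, and 9 of all genes each time in place of 1332. Without KI 3 Class V replicate 4 it called 4 members, without KI sham replicate 1 or 2 it called 5, without KI sham replicate 3 it called 1, Dnajc6, and without KI sham replicate 4 it called 24, among them all 9. The loss of a KA library also moved the count. It was 6 without any 1 of the KA 3 Class V libraries or of KA sham 3, 5 and 7. Without KA sham 2 it was 14, and the cause was not tested. Among these fits, all-gene counts are given only for those without KI 3 Class V replicate 1, 2 or 3. The other member counts are therefore not read as particular to the members. The direction of the 9 was the same in each fit with 1 library left out. DESeq2 called 17 members and limma-voom 45, and both sets held all 9.

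Cell type markers and ribosomal protein genes moved along with the KI groups. Summed neuron markers ran from 6367 to 7661 CPM in KI 3 Class V and from 3589 to 5615 CPM in KI sham, without overlap, with 3 of 8 called higher. Summed microglia markers ran from 496 to 518 CPM in KI 3 Class V and from 663 to 1287 CPM in KI sham, with 4 of 8 called lower. Summed oligodendrocyte markers ran from 9815 to 13805 CPM in KI 3 Class V and from 15701 to 21054 CPM in KI sham, again without overlap, with 2 of 7 called lower, and 2 of 6 ependymal markers were called lower. Of 9 astrocyte markers 1 was called higher, and of 8 endothelial and pericyte markers 1 was called lower. Choroid plexus markers had a median log2 fold change of -1.95, with 0 of 7 positive. Of these 7, 6 had an unadjusted p under 0.05 and 0 were called. The ribosomal protein score was -0.379 ± 0.135 in KI 3 Class V and 0.253 ± 0.436 in KI sham (SD, n = 4 each). With that score as a covariate, 1 member was still called, Dnajc6, with a log2 fold change of 0.61 and an edgeR adjusted p of 0.0397, and the values of Hspa12a and Dnajc17 were 0.31 and -0.23. The part of these cell types in the calls was not tested.

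The genes that rose in the KA model did not pass the test in the KI model. Hspb1 had 14, 12.2, 15.3 and 22.3 CPM in KI 3 Class V, against 12.4, 13.5, 33.6 and 26.1 CPM in KI sham. The groups overlapped, with KI sham 3 and 4 on top. The log2 fold change was -0.43 ± 0.37 (SE; edgeR adjusted p 0.401), and without KI sham 3 and KI sham 4 it was 0.28. Bag3 had 20.3, 17.7, 17.5 and 20.9 CPM in KI 3 Class V, against 24.2, 22.5, 21.4 and 21.8 CPM in KI sham, slightly lower in every library, with a log2 fold change of -0.24 ± 0.32 (SE; edgeR adjusted p 0.592). Hspb8 lay at -0.05, Hspb6 at -0.12, Hspb7 at 0.26 and Hspb11 at -0.61 (edgeR adjusted p 0.850, 0.607, 0.768 and 0.193).

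Hsph1 had 378, 340, 386 and 299 CPM in KI 3 Class V, against 265, 248, 208 and 257 CPM in KI sham. The groups did not overlap, and the log2 fold change was 0.52 ± 0.23 (SE, edgeR adjusted p 0.115). Hsph1 was called when the KI libraries were fitted alone and by limma-voom, which called 45 members in KI. Hspe1, the mitochondrial co-chaperonin, lay at -0.69 ± 0.37 (SE; edgeR adjusted p 0.186). Bag4, a Bag-domain protein that silences death receptors, had 47.9, 38.6, 47.6 and 43.3 CPM in KI 3 Class V, against 10.3, 28.9, 32.4 and 34.7 CPM in KI sham. KI sham 1 was far below the rest, and the log2 fold change was 0.74 ± 0.26 (SE; edgeR adjusted p 0.0638). Bag1, an Hsp70 exchange factor, lay at -0.35 ± 0.16 (SE; edgeR adjusted p 0.133). Hsp90aa1 and Hsp90ab1 lay at -0.17 and -0.05, Hsp90b1 at 0.11, Hsf1 at 0.05 and Hsf2 at 0.23 (edgeR adjusted p 0.543, 0.816, 0.582, 0.731 and 0.108). KI sham 1 had 5091 CPM for Hsp90aa1, against 2092 to 2832 CPM in the other KI shams. For Hsp90ab1 it had 2969 CPM, against 1635 to 2049 CPM. Hspbp1 and Hspbap1, which bind Hsp70 and Hspb1, lay at -0.37 and -0.23 (edgeR adjusted p 0.127 and 0.208).

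Groups that did not overlap numbered 20 of 75 members in KI, 14 higher and 6 lower in KI 3 Class V, against 20.2% of all genes (12.1% higher and 8.07% lower). Besides the 6 that rose, the 14 included the synaptic vesicle chaperone Dnajc5, the mitochondrial Hsp70 gene Hspa9 and the J-domain gene Dnajc27, and besides the 3 that fell, the 6 included Bag3, Dnajc9 and Dnajc25. In the list of 18 reticulum genes outside the name rule, 2 fell, Sdf2l1 at -1.26 and Creld2 at -0.51 (edgeR adjusted p 0.0284 and 0.0458), and among 13 other genes linked to the heat shock response 1 fell, Hmox1, at -1.35 ± 0.39 (SE; edgeR adjusted p 0.0418), beside 5.25% of all genes. With 1 library left out, the call was lost in 4 of 18 fits for Sdf2l1, 12 of 18 for Creld2 and 8 of 18 for Hmox1, including for each those without KI 3 Class V replicate 1, 2 or 3 and without KI sham replicate 3. Without KI sham 3 and KI sham 4 together, Hmox1 was at -0.85 (edgeR adjusted p 0.155). Of the 8 subunits of TRiC, the cytosolic chaperonin, edgeR called 0, with 3 at an unadjusted p under 0.05, while DESeq2 called 0 and limma-voom 4, and the smallest p was that of Cct5, at -0.38 (edgeR adjusted p 0.0943).

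In the KA model these lists, and a list of 20 co-chaperones outside the name rule, held 0 called genes by edgeR. At an unadjusted p under 0.05 there were 0 of 20 co-chaperones, 0 of 8 TRiC subunits and 2 of 13 other linked genes, and DESeq2 and limma-voom called 0 in each of these 3 lists. The smallest p values were those of the immunophilin Fkbp8, at -0.29 (edgeR adjusted p 0.613), the TRiC subunit Cct8, at 0.10 (edgeR adjusted p 0.818), and the crystallin Cryaa, at 1.64 (edgeR adjusted p 0.278).

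**Figure D4:**
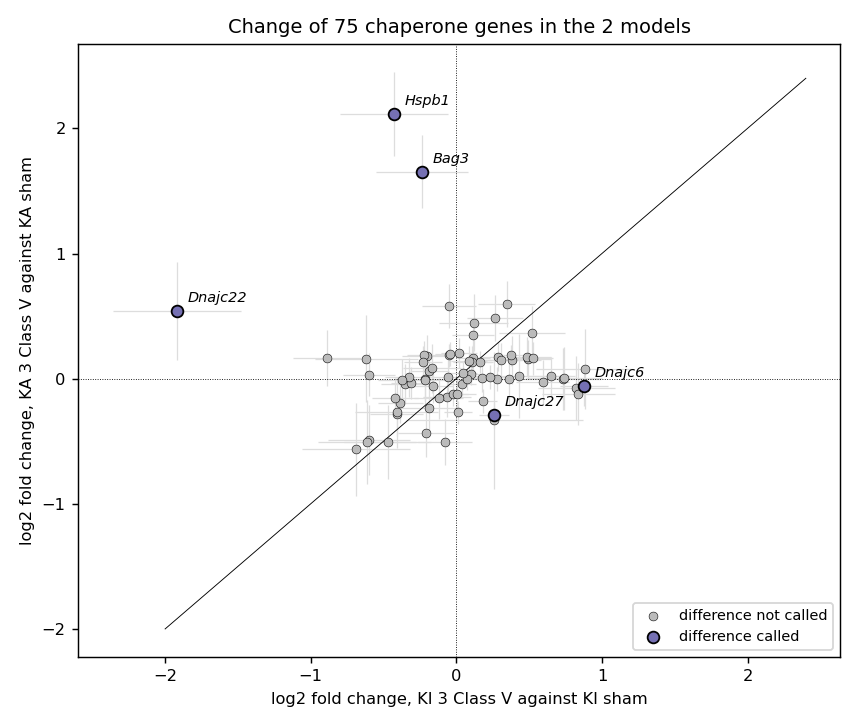
Log2 fold change of each of the 75 members in KA 3 Class V against KA sham (vertical axis) plotted against its log2 fold change in KI 3 Class V against KI sham (horizontal axis), with 1 point per gene, grey lines for the SE, a diagonal line of equal change, and the 5 genes that differed between the models filled and named. Hspb1 and Bag3 lie at the top near a KI change of -0.43 and -0.24, and Dnajc6 and Dnajc22 lie far out along the KI axis.

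No member was called in both models, beside 0.172% of all genes called in KA and 9.99% in KI. So few genes were called in KA that the lack of a shared call is not a result about the members. The models differed in 5 of 75 members when the KA change was tested against the KI change, or 6.67%, beside 3.8% of all genes. In 3 the KA change was the higher one and in 2 the lower. The difference was 2.54 ± 0.51 on the log2 scale for Hspb1, 1.89 ± 0.44 for Bag3 and 2.46 ± 0.58 for Dnajc22 (SE; edgeR adjusted p 0.0155, 0.0251 and 0.0290). It was -0.94 ± 0.23 for Dnajc6 (SE; edgeR adjusted p 0.0314). For Dnajc27, a Rab-like GTPase with a J domain, it was -0.55 ± 0.14 (SE; edgeR adjusted p 0.0401), from a log2 fold change of -0.29 in KA and 0.26 in KI, neither of which was called. Dnajc27 had 182, 170 and 167 CPM in KA 3 Class V, against 199 to 247 CPM in KA sham, and 223, 209, 220 and 219 CPM in KI 3 Class V, against 156, 199, 204 and 169 CPM in KI sham. It lay below all shams in 1 model and above all shams in the other.

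These differences also leaned on single libraries. Without KA 3 Class V replicate 3, edgeR called 0 of the 5, with 13 members at an unadjusted p under 0.05, and the difference was 1.87 for Hspb1 and 0.91 for Bag3. Without KA 3 Class V replicate 1 or 2 it called 3 and 2, and without KI 3 Class V replicate 1, 2, 3 or 4 it called 1, 3, 1 and 3. Hspb1 was called in each of these fits other than that without KA 3 Class V replicate 3. No all-gene count is given here for these fits, so their member counts are not read as particular to the members. Outside the members, Pdia4 differed between the models by 0.66 (edgeR adjusted p 0.0148), and without KA 3 Class V replicate 3 by 0.68 (edgeR adjusted p 0.0518). Of the 18 reticulum genes edgeR called 1 for this difference, DESeq2 4 and limma-voom 9.

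The Hspa class had a median log2 fold change of 0.31 in KI, with 11 of 13 genes positive, and of 0.13 in KA, with 9 of 13 positive, beside -0.040 and -0.011 for all genes. Its score was 0.165 ± 0.0446 in KI 3 Class V and -0.0698 ± 0.0502 in KI sham (SD, n = 4 each), and these groups did not overlap, while in KA it was 0.0703 ± 0.0850 in KA 3 Class V and -0.0843 ± 0.188 in KA sham (SD, n = 3 and 7). The small heat shock class had a KI median of -0.27, with 1 of 6 positive, and its score was -0.218 ± 0.184 in KI 3 Class V and 0.0372 ± 0.0533 in KI sham (SD, n = 4 each). With the covariate these KI medians were 0.077 for the Hspa class and 0.064 for the small heat shock class. The 40 Dnaj genes split evenly in KI, 20 up and 20 down, and 18 to 22 in KA, with medians of -0.0055 and -0.0060. The Hsp90 class had medians of -0.055 in KI and 0.081 in KA. Its score was 0.123 ± 0.163 in KI 3 Class V and 0.120 ± 0.386 in KI sham (SD, n = 4 each), with KI sham 1 at 0.676. In KA it was 0.0117 ± 0.0498 in KA 3 Class V and -0.144 ± 0.136 in KA sham (SD, n = 3 and 7).

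**Figure D5:**
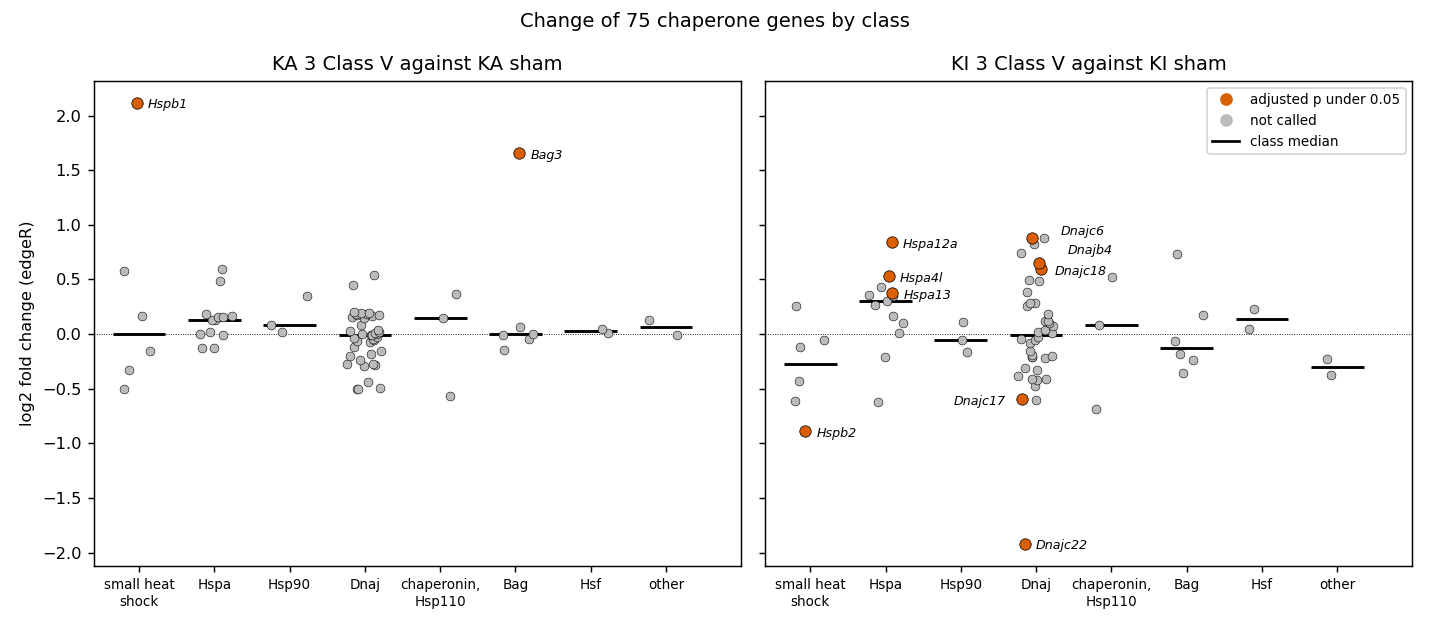
Log2 fold change of each of the 75 members by class, in KA 3 Class V against KA sham (left panel) and KI 3 Class V against KI sham (right panel), with 1 point per gene, called genes in orange with their names and a line at each class median. Hspb1 and Bag3 stand alone above their classes in KA, while in KI the Hspa median lies at 0.31 and the 9 called genes lie on both sides of 0.

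The shams of the models were also set against each other. EdgeR called 0 of 75 members between KA sham and KI sham, with 8 (10.7%) at an unadjusted p under 0.05, beside 0.0075% of all genes called and 8.63% at an unadjusted p under 0.05. DESeq2 called 0 members and limma-voom 1, Dnajb14. The sham groups did not overlap for 2 members, Dnajc18, higher in KA sham, and Dnajc2, a ribosome-associated J-domain protein, lower in KA sham, against 0.66% of all genes. Without KI sham 3 and KI sham 4 the count of called members was 6. No all-gene count is given beside it, so it is not read as particular to the members.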

How the data were processed

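RNA was sequenced from 18 libraries. The deposited values are raw read counts for each gene symbol, not normalized. Per the submitters' processing notes, the authors used FastQC, Trimmomatic, HISAT2, featureCounts and DESeq2 with the build rn6. The sources used here do not give versions, the annotation, the strand setting or the handling of multi-mapped reads, so near-identical or overlapping genes are uncertain. Sample titles gave the groups and replicate numbers. The labels do not state for each library that it is a separate animal, so the p-values measure the spread between these samples. All 36 library pairs within a group differed beyond counting error, with a chi-square of 20.4 to 602.6 per degree of freedom.

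Tests used edgeR 4.0.16 in R 4.3.3 (TMM factors, filterByExpr, group means, robust quasi-likelihood F test, two-sided) on all 18 libraries in 1 fit with 14 residual degrees of freedom, with Benjamini-Hochberg adjustment over 13338 genes. Standard errors were derived from F (absolute log2 fold change over its square root). CPM used TMM-scaled library sizes, with a prior count of 2 for log2 CPM. The procedure was also run on simulated counts, drawn independently for each gene and library. No shifts shared by many genes of a library were put in, so that run cannot vouch for the calls. As alternatives, limma-voom with quality weights (limma 3.58.1), DESeq2 1.42.0, RLE and upper quartile factors, no filter, a filter of 10 counts in 3 libraries, each model alone, no KI sham 3 and 4, a replicate block, the ribosomal protein score as a covariate, and leaving out each library were tried. That score is over symbols starting with Rpl or Rps and a digit, which also match some kinases.

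The members and lists were chosen with earlier results of these data known. Named genes are members called in any comparison, the 2 of each class with the smallest p in each model, every small heat shock, Hsp90 and Hsf gene, and of each pathway list those called and the 1 with the smallest p. The KI result of the co-chaperone list is not reported here. Hspa1a, Hspa1b, Hspa8, Hspa9, Hspd1, Dnaja4, Dnajb1, Dnajb13, Dnajb14, Dnajc2, Dnajc3, Dnajc5, Dnajc9, Dnajc25, Cryab and Gfap were named after their values were seen. Promoter sequences are RefSeq's for GRCr8, used for no other coordinates.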

Additional observations from a re-analysis of the deposited data

Results flagged for a closer look

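Dixon's criterion was applied to groups of 4 or more libraries for the 31 named members. A library stood far from the others of its group in 6 of 93 groups tested, or 6.45%, where chance gives about 1 in 20. KA 3 Class V (n = 3) was too small to be tested. Its replicate 3, with 112 CPM for Hspb1 and 131 CPM for Bag3, was therefore not judged. KI sham 1 accounted for 4 of the 6. Dnajb4 had 15.9 CPM there against 27.9 to 29.5 CPM in the other KI shams, Dnajc18 had 10.2 CPM against 21.3 to 23.4 CPM, Dnajc6 had 205 CPM against 305 to 317 CPM, and Hsp90b1 had 468 CPM against 330 to 350 CPM. KI sham 1 also had the lowest summed neuron markers of all libraries, 3589 CPM, and the second highest ribosomal protein score, 0.69; their part in these values was not tested. Dnajc27 had 247 CPM in KA sham 2, against 199 to 210 CPM in the other KA shams. Hspe1 had 72.2 CPM in KI 3 Class V 4, against 51.7 to 54.0 CPM in the other 3 KI 3 Class V libraries.

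The change in the KA model differed from that in the KI model in 5 members by the test of the difference in edgeR. The differences on the log2 scale were 2.54 for Hspb1, 1.89 for Bag3, 2.46 for Dnajc22, -0.94 for Dnajc6 and -0.55 for Dnajc27.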

How the results depend on the processing

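No called member changed its direction under an alternative. Members called in KA numbered 4 with limma-voom, 1 with each model alone, and 0 with a replicate block; in KI they numbered 17 with DESeq2, 45 with limma-voom, 5 with each model alone, 24 without KI sham 3 and KI sham 4, 0 with the replicate block and 1 with the ribosomal protein covariate; for the difference between models 25 with limma-voom, 0 with the replicate block and 9 with the covariate; between shams 1 with limma-voom and 6 without KI sham 3 and KI sham 4. With 1 library left out these counts ran from 0 to 2 in KA, 0 to 24 in KI and 0 to 5 for the difference. The 5 called in KI with each model alone were Dnajc22, Dnajc6, Hspa12a, Hspa4l and Hsph1. They share 4 genes with the 9 of the main fit. Same-numbered libraries correlated at -0.154 to 0.0091 in KA and -0.166 to -0.0679 in KI, and none of them correlated best with its own number. The labels do not say what the numbers mean, and such correlations cannot exclude a pairing or a shared batch. Without a stated pairing the main fit had no block. The replicate block is given as an alternative, with 4, 17 and 5 members at an unadjusted p under 0.05 in KA, KI and the difference. It has a term for each replicate number within a model, and KA sham 4 to 7 are alone in their blocks. The fit therefore has fewer residual degrees of freedom than the 14 of the main fit. Its lack of calls cannot show whether the calls would be lost under a true pairing. Over all genes the called counts were 254 in KA and 2965 in KI with DESeq2, 725 and 7355 with limma-voom, 3 and 0 with the replicate block, and 205 and 105 with the covariate. For the difference, the shams, the other settings and most fits with 1 library left out, no all-gene count is given here. Those member counts are therefore not read as particular to the members.

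KI class medians moved, for Dnaj to -0.068 with upper quartile factors, -0.11 without KI sham 3 and KI sham 4 and 0.078 with the covariate (-0.069 to 0.059 with 1 library left out); for Hspa to 0.39 with limma-voom, 0.24, 0.15 and 0.077 under the settings named for Dnaj (0.22 to 0.33); and for small heat shock genes to -0.41 with each model alone and 0.064 with the covariate (-0.42 to -0.14). The upper quartile moved the KI median of all genes from -0.040 to -0.10. Genes that were not called changed sign as follows. With limma-voom, Bag2 was 0.038 and Hsf1 -0.025 in KA, and Hsp90aa1 0.052 and Hsp90ab1 0.096 in KI. With upper quartile factors Hsf1 was -0.014 in KI. Without KI sham 3 and KI sham 4, KI values were -0.054 for Hsf1, -0.046 for Hsp90b1, 0.28 for Hspb1 and -0.040 for Hspb7. With the covariate, they were 0.012 for Hsp90aa1, -0.025 for Hsp90b1, 0.18 for Hspb11, 0.19 for Hspb6, -0.055 for Hspb7, 0.18 for Hspb8 and 0.23 for Hspe1, and Hspbp1 was 0.0023 in KA. With the replicate block, KA values were -0.10 for Hspb2 and 0.090 for Hspb7. With 1 library left out, KA ranges crossed 0 for Bag2 (-0.29 to 0.016), Hsf1 (-0.025 to 0.12), Hsf2 (-0.055 to 0.060), Hsp90ab1 (-0.035 to 0.055), Hspb2 (-0.14 to 0.34) and Hspbp1 (-0.082 to 0.032), and KI ranges for Hsf1 (-0.0074 to 0.12), Hsp90aa1 (-0.34 to 0.18), Hsp90ab1 (-0.19 to 0.15) and Hspb7 (-0.13 to 0.67). The causes were not tested. Depth limits Hspb7, Hspa1b and Dnajc22, with as few as 1, 4 and 10 counts in a library.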
